A study of Mus musculus with 6 samples.

Results

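Genes of cholesterol and fatty acid synthesis were followed in NIH3T3 cells, an established line of mouse embryonic fibroblasts, on Affymetrix expression arrays. The list holds 33 genes named as targets or partners of the sterol regulatory element-binding proteins (SREBPs), and each was represented by the probe set of that gene with the highest mean intensity over the 6 arrays. Of the 33, 32 had a probe set and all 32 passed the filter on dim genes, among 10916 genes tested of 18193 with a probe set. Acat2, a thiolase at the entry of the pathway, had no probe set paired with it and was not analysed here. The 32 comprised 6 genes of the mevalonate branch, 11 of the branch from squalene to cholesterol, 6 regulators and sterol carriers, and 9 of the fatty acid branch. The arrays were 3 from cells with mutant LPAR1 and 3 from cells with wild-type LPAR1, a receptor for the serum lipid lysophosphatidic acid, with 1 array for each genotype at 0, 60 and 120 minutes. All came from the same cell line. The labels leave unsaid which mutation the receptor carried, how it was introduced, which treatment began at 0 minutes, if any, and whether arrays came from separate cultures or clones, so the p-values measure the spread between these arrays, which may be technical.

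Cells make cholesterol from acetyl-CoA through mevalonate, isoprenoid diphosphates, squalene and a run of sterol intermediates, and fatty acids from the same precursor. SREBPs are transcription factors held in the endoplasmic reticulum by Scap and the Insig proteins when sterols are plentiful. When sterols fall they are carried to the Golgi, cut, and switch on the enzymes of both pathways. In proliferating fibroblasts the same genes supply membrane lipid for growth.

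Arrays had median intensities of 34.1 to 37.3 and means of 299 to 308. The members were bright, with mean intensities 10.4 to 233 times the filter level of 39.2. Fibroblast markers were above that level for 9 of 9 genes, with a summed intensity of 56939 to 57704 in mutant cells and 57632 to 58936 in wild-type cells, and 0 of 6 adipocyte, 1 of 5 hepatocyte, 3 of 6 immune, 3 of 5 epithelial and 1 of 4 endothelial markers with a probe set were above it. The array does not check the mutation itself: Lpar1 had 1496, 1514 and 1438 in mutant cells at 0, 60 and 120 minutes, against 1335, 1290 and 1289 in wild-type cells, a log2 difference of 0.18 ± 0.045 (SE, limma, adjusted p = 0.0209). Values below are probe set intensities on the deposited linear scale, and differences are log2 differences ± SE from the limma fit over the 6 arrays, with p-values adjusted by Benjamini-Hochberg over all 10916 genes. In RNA from whole cultures, fewer cells of a kind and less RNA per cell cannot be told apart.

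Promoter sequences from RefSeq (GRCm38.p6) were matched by symbol for 26 of the 33 genes, in windows of 250 bases before to 50 bases after each annotated start. A gene with several starts counted as holding a motif if any of its windows held it. SREBPs bind sterol elements weakly alone and act together with NF-Y, which binds the CCAAT box. On either strand, 21 of 26 members (80.8%) held CCAAT, against 41.1% of 27025 genes with a window. The GC box GGGCGG, bound by Sp factors, was in 22 members (84.6%) against 38.2% of genes, the E-box CACGTG in 5 (19.2%) against 8.09%, and the sterol element core TCACNCCAC in 1 (3.85%), Hmgcs1, against 1.44%. No motif of these contains another. The 27025 genes were not limited to those tested on the array, whereas every member with a window except Acat2 was tested and bright. Shares among the tested genes alone were not counted, so these shares do not set the members apart from other expressed genes. Of the 8 members that passed at 120 against 0 minutes on all 3 scalings of the arrays, 6 had a window, and their 200 bases before the start are shown so that those higher and those lower can be read side by side, each on the strand of its gene and ending at the base before the start. Capitals mark CCAAT on either strand or the sterol element core. Those higher at 120 minutes were Hmgcs1 (chr13:119690151-119690350, plus strand), Msmo1 (chr8:64733579-64733778, minus strand) and Idi1 (chr13:8885406-8885605, plus strand). Those lower at 120 minutes were Dhcr7 (chr7:143822967-143823166, plus strand, the most upstream of its 3 annotated starts), Mvd (chr8:122443423-122443622, minus strand) and Acss2 (chr2:155517843-155518042, plus strand).
Hmgcs1: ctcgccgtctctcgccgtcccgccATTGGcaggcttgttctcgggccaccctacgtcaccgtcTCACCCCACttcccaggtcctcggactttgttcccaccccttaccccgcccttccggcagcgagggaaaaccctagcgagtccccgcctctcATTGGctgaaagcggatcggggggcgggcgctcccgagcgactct
Msmo1: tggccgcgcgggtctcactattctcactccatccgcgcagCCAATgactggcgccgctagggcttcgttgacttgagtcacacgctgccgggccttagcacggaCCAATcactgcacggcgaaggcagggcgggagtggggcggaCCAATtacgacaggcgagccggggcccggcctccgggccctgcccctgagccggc
Idi1: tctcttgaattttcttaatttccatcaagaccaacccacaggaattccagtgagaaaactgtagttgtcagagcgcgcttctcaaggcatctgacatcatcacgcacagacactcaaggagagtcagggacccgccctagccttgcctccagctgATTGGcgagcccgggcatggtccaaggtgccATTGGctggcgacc
Dhcr7: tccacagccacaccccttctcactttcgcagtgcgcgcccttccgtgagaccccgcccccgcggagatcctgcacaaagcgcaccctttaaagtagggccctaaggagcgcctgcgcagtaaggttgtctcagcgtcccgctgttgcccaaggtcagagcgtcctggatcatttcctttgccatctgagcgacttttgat
Mvd: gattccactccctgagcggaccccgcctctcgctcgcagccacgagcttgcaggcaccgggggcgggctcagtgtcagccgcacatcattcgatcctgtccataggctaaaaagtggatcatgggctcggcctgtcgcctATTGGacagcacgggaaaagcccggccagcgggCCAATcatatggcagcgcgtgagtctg
Acss2: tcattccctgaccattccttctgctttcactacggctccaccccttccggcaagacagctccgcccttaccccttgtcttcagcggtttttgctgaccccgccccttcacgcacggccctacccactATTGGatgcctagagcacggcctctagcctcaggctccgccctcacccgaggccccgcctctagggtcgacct
The printed stretch holds 2 CCAAT boxes in Hmgcs1, 3 in Msmo1, 2 in Idi1, 2 in Mvd, 1 in Acss2 and 0 in Dhcr7, where another start of the gene has the box. A match of letters is a description of the sequence.

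The comparison of 120 with 0 minutes had members in both directions, as it had among all genes. Hmgcs1, Idi1, Sqle and Msmo1 rose in both genotypes, by 0.16 to 0.26 on the log2 scale, and Mvd, Dhcr7, Acss2 and Scd1 fell, with Dhcr7 1.72-fold and Mvd 1.52-fold lower. Those 8 passed on each of 3 scalings of the arrays, which made 12.5% of members in each direction, below the 16.1% of genes that were higher and the 16.1% that were lower on all 3. On the deposited scale 4 of 32 members were higher (12.5%), where 16.2% of all genes tested were higher, and 16 of 32 were lower (50%), where 30.8% of all genes were lower. In either direction 20 of 32 passed (62.5%, against 47.0%). The median difference of the members was -0.16, and that of all genes was -0.09. Shifting the arrays to the same median, taken before the filter on dim genes, raised the median of all genes tested by 0.141, from -0.09 to 0.05. The genes tested were thus not centred on 0 after the shift. On that scale 8 members were higher (25.0%, against 25.4% of genes) and 4 lower (12.5%, against 16.2% of genes). After quantile normalization the median of all genes was -0.02, and 4 members were higher (12.5%, against 20.6%) and 17 lower (53.1%, against 25.9%). The share of lower members was thus above that of all genes on the deposited and quantile scales and not above it after the median shift. The 5' to 3' ratio of the Actb control probe sets, a sign of RNA integrity, was 0.505, 0.683 and 0.661 in mutant cells at 0, 60 and 120 minutes, against 0.579, 0.650 and 0.699 in wild-type cells. It was lowest at 0 minutes in both genotypes. The same ratio of Gapdh was 0.954, 1.03 and 1.03 in mutant cells, against 1.02, 1.03 and 0.991 in wild-type cells, lowest at 0 minutes only in mutant cells. Some markers were lower at 120 than at 0 minutes as well, namely fibroblast Pdgfra (-0.64, limma, adjusted p = 3.49e-05) and Pdgfrb (-0.32, adjusted p = 0.00176) and epithelial Cdh1 (-0.53, adjusted p = 0.00146) and Krt14 (-0.30, adjusted p = 0.0021). The other fibroblast markers were not lower, with 0.005 (Fn1) to 0.14 (Thy1), and epithelial Epcam had 0.25, and none of these passed. The part of RNA integrity and of the marker changes in the time differences was not tested.

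**Figure D1:**
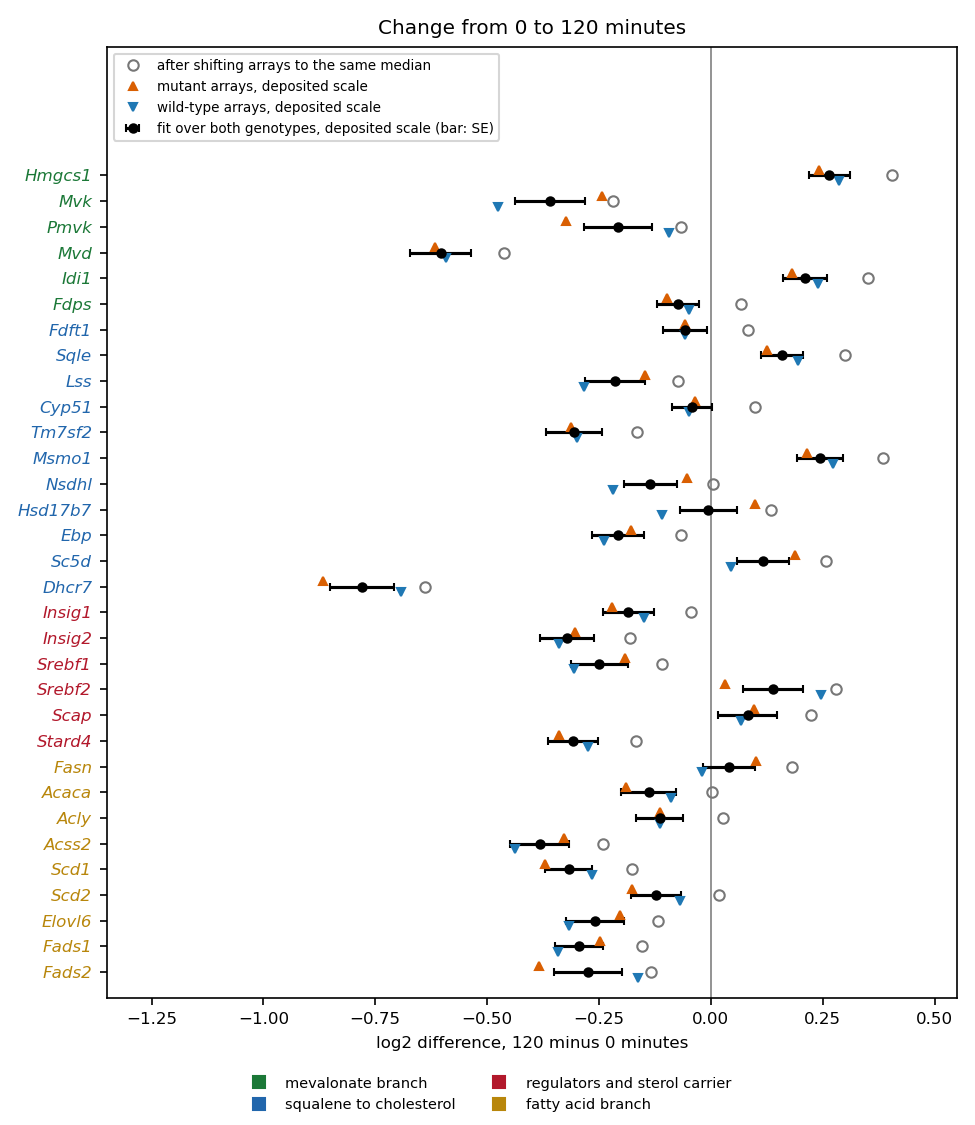
Log2 difference between 120 and 0 minutes for each of the 32 members, coloured by role, with the limma estimate and its SE (black), the mutant arrays (upward triangles), the wild-type arrays (downward triangles) and the estimate after shifting arrays to the same median (open circles). Dhcr7 and Mvd lie farthest to the left at -0.78 and -0.60 and Hmgcs1 farthest to the right at 0.26, and every open circle lies to the right of its black point.

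In the mevalonate branch the steps went different ways. Hmgcs1, the HMG-CoA synthase that commits acetyl-CoA to the pathway, had 4621, 5841 and 5469 in mutant cells at 0, 60 and 120 minutes, against 4581, 5726 and 5594 in wild-type cells. All 4 later arrays were above both 0 minute arrays, and the genotypes overlapped. The difference was 0.26 ± 0.045 at 120 minutes (limma, adjusted p = 0.000957) and it passed in all 15 alternative settings. Of its 4 other probe sets above the filter level, 3 gave differences of 0.26 to 0.36 and 1, with lower intensity, gave -0.11. Idi1, which isomerises isopentenyl diphosphate, had 2704, 2934 and 3070.5 in mutant cells, against 2933, 3178 and 3463 in wild-type cells, a difference of 0.21 ± 0.049 (limma, adjusted p = 0.00567). Each genotype was highest at 120 minutes, and the other probe set gave 0.22. Mvd, the decarboxylase that makes isopentenyl diphosphate, had 749.9, 625 and 484 in mutant cells, against 1030.0, 763 and 678 in wild-type cells. Both genotypes were lowest at 120 minutes, by -0.62 in mutant and -0.59 in wild-type cells, and the fitted difference was -0.60 ± 0.069 (limma, adjusted p = 7.45e-05). It was -0.46 after the median shift, and the other probe set gave -0.57.

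The kinases between them were lower too, on the deposited scale. Mvk, mevalonate kinase, had 419, 394 and 351 in mutant cells, against 509, 418 and 361 in wild-type cells, which gave -0.36 ± 0.078 (limma, adjusted p = 0.00388). The wild-type array at 0 minutes stood above the other 5, and without it Mvk no longer passed (limma, adjusted p = 0.0799). Pmvk, phosphomevalonate kinase, had 599, 554 and 476 in mutant cells, against 572, 530.4 and 535 in wild-type cells, which gave -0.21 ± 0.076 (limma, adjusted p = 0.0469). It passed in 6 of 15 alternatives, and the mutant array at 120 minutes was the lowest of the 6. Neither kinase passed after the median shift. Fdps, farnesyl diphosphate synthase, did not pass in any comparison, with intensities of 4538 to 4857 in mutant cells and 4546 to 4781 in wild-type cells.

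From squalene to cholesterol, 2 of 11 genes were higher at 120 minutes (18.2%, against 16.2% of all genes) and 4 were lower (36.4%, against 30.8%), shares near those of all genes. After the median shift 3 were higher (27.3%, against 25.4% of all genes) and 1 was lower (9.09%, against 16.2%). Sqle, the squalene epoxidase and a control point of the pathway, had 3715, 3956 and 4053 in mutant cells, against 3713, 4096 and 4251 in wild-type cells. It climbed with time in both genotypes, by 0.16 ± 0.047 at 120 minutes (limma, adjusted p = 0.0192), and no longer passed without the wild-type array at 0 or at 120 minutes. Msmo1, an oxidase in the removal of methyl groups from the sterol, had 4567, 5430.5 and 5307 in mutant cells, against 5143, 5665 and 6214 in wild-type cells. All later arrays were above the 0 minute array of their genotype, and the difference was 0.24 ± 0.052 (limma, adjusted p = 0.00337). Its other probe set gave 0.04.

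Dhcr7, the reductase of the last step to cholesterol, had 553, 387 and 296 in mutant cells at 0, 60 and 120 minutes, against 613, 462 and 373 in wild-type cells. The order 0, 60, 120 ran downward in both genotypes with no overlap between 0 and the later times. It fell by 0.78 ± 0.072 (limma, adjusted p = 1.77e-05), the member with the lowest fitted value, and by 0.64 after the median shift. Tm7sf2, a sterol reductase that acts after Cyp51, had 742, 629 and 595 in mutant cells, against 563, 473 and 454 in wild-type cells, with -0.31 ± 0.063 between 120 and 0 minutes (limma, adjusted p = 0.00291). Each genotype was highest at 0 minutes. Ebp, the sterol isomerase, had 1002, 886 and 884 in mutant cells, against 1076, 955 and 910.0 in wild-type cells, with -0.21 ± 0.059 (limma, adjusted p = 0.0152). The values at 0 minutes were above all later ones. Lss, lanosterol synthase, had 1130.5, 1158 and 1019.8 in mutant cells, against 1288, 1123 and 1056 in wild-type cells, with -0.22 ± 0.067 (limma, adjusted p = 0.024). Tm7sf2, Ebp and Lss did not pass after the median shift. The other 5 genes of this branch, Fdft1, Cyp51, Nsdhl, Hsd17b7 and Sc5d, had fitted differences of -0.14 (Nsdhl) to 0.12 (Sc5d) that did not pass on the deposited scale. After the median shift Sc5d passed as higher, with 0.26 (limma, adjusted p = 0.00415). On the deposited scale its other probe sets disagreed in sign, with -0.28 in the brighter and 0.15 in the dimmer.

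**Figure D2:**
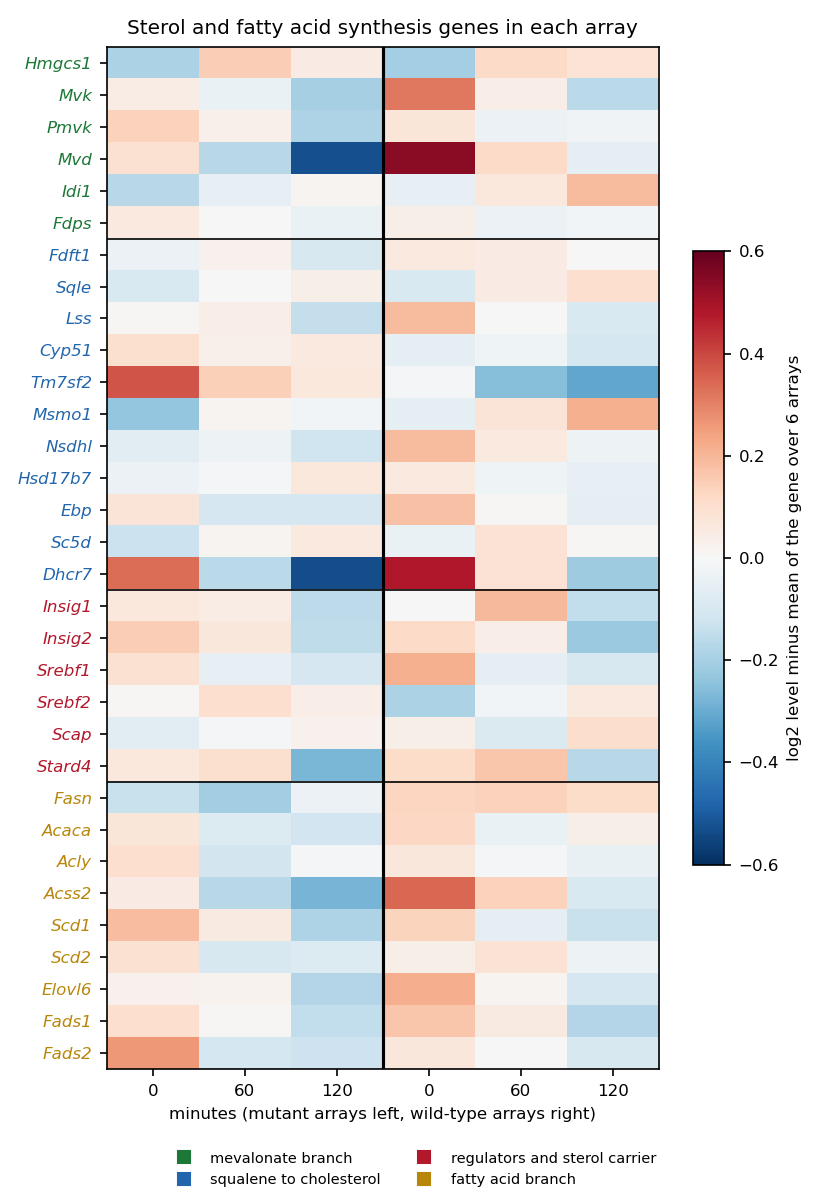
Log2 level of each of the 32 members in each of the 6 arrays, relative to the mean of that gene over the arrays, with mutant arrays on the left and wild-type arrays on the right, each at 0, 60 and 120 minutes, and genes ordered by role. Mvd and Dhcr7 run from red to blue with time in both genotypes, Hmgcs1 and Msmo1 are bluest at 0 minutes, and Tm7sf2 is redder in mutant than in wild-type arrays at every time.

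Among the regulators and the sterol carrier Stard4, 4 of 6 genes were lower at 120 minutes on the deposited scale (66.7%, against 30.8% of all genes). In this group 0 were higher (against 16.2%), also at an unadjusted p of 0.05 in limma. After the median shift 2 were higher (33.3%, against 25.4% of all genes) and 0 lower (against 16.2%). After quantile normalization the count was 0 higher (against 20.6%) and 4 lower (66.7%, against 25.9%). Insig1, itself an SREBP target that retains the SREBP complex when sterols are high, had 4131, 4084 and 3545 in mutant cells, against 3963, 4536 and 3572 in wild-type cells. Both genotypes were lowest at 120 minutes, and the wild-type array at 60 minutes was the highest. Its difference between 120 and 0 minutes was -0.18 ± 0.057 (limma, adjusted p = 0.0238). Insig2, its relative, had 862, 814 and 696 in mutant cells, against 842, 799 and 662 in wild-type cells, with -0.32 ± 0.06 (limma, adjusted p = 0.00165). The 120 minute arrays lay below all others. Stard4, a carrier that moves cholesterol between membranes, had 1235, 1263 and 973 in mutant cells, against 1276, 1329 and 1051 in wild-type cells, with -0.31 ± 0.056 (limma, adjusted p = 0.00147). It stayed near its 0 minute intensity at 60 minutes and was lower in both genotypes at 120 minutes.

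The SREBP genes themselves differed from each other. Srebf1, which encodes the SREBP most tied to fatty acid genes, had 829.8, 752 and 724 in mutant cells, against 903, 747 and 728 in wild-type cells, with -0.25 ± 0.064 at 120 minutes (limma, adjusted p = 0.00938). Both 0 minute arrays were above the later 4. Srebf2, which encodes the SREBP most tied to cholesterol genes, had 969, 1036 and 991 in mutant cells, against 844, 952 and 1003 in wild-type cells, with 0.14 ± 0.067 (limma, adjusted p = 0.119). Times overlapped in it. Scap, the sterol sensor that escorts SREBPs, had 857, 896 and 918 in mutant cells, against 923, 847 and 969 in wild-type cells, with 0.08 ± 0.066 (limma, adjusted p = 0.339). After the median shift Srebf2 and Scap passed as higher, by 0.28 and 0.22. None of the 4 lower genes, Stard4 among them, then passed, so the calls for the regulators and carrier depended on the scaling.

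Of the 9 fatty acid genes, 5 were lower at 120 minutes (55.6%, against 30.8% of all genes) and 0 were higher (against 16.2%), which was also the count of higher genes at an unadjusted p of 0.05 in limma. After the median shift 1 was higher (11.1%, against 25.4% of all genes) and 2 were lower (22.2%, against 16.2%). After quantile normalization 7 were lower (77.8%, against 25.9%). Acss2, which makes acetyl-CoA from acetate, had 621, 533 and 492 in mutant cells, against 766, 661 and 562 in wild-type cells. Both genotypes ran downward with time, and the difference was -0.38 ± 0.066 (limma, adjusted p = 0.00102), or -0.24 after the median shift. Scd1, the desaturase that makes monounsaturated fatty acids, had 4874, 4456 and 3765 in mutant cells, against 4705, 4138 and 3912 in wild-type cells. The 120 minute arrays were the lowest of each genotype, with -0.32 ± 0.052 (limma, adjusted p = 0.000776), or -0.18 after the median shift, and the other probe set of Scd1 gave -0.09. Both genes passed in all 15 alternatives.

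The chain-modifying enzymes passed as lower on the deposited scale and not after the median shift. Fads1, a desaturase of polyunsaturated fatty acids, had 1994, 1868 and 1676 in mutant cells, against 2092, 1929.5 and 1647 in wild-type cells, with -0.30 ± 0.054 (limma, adjusted p = 0.00141). Fads2, its neighbour and partner desaturase, had 1043, 806 and 795 in mutant cells, against 909.6, 865 and 811 in wild-type cells, with -0.27 ± 0.076 (limma, adjusted p = 0.0144). For both genes the 0 minute arrays were above the later ones. Elovl6, the elongase of palmitate, had 1049, 1045 and 909 in mutant cells, against 1200.4, 1042 and 960.3 in wild-type cells, with -0.26 ± 0.065 (limma, adjusted p = 0.00827). The core synthesis enzymes Acly, Acaca and Fasn, which make cytosolic acetyl-CoA, malonyl-CoA and palmitate, did not pass on the deposited scale, with -0.11 ± 0.052, -0.14 ± 0.061 and 0.04 ± 0.059, and neither did Scd2, at -0.12 ± 0.056. Fasn passed as higher after the median shift (0.18, limma, adjusted p = 0.0246), and Acly (-0.14, adjusted p = 0.0494) and Scd2 (-0.15, adjusted p = 0.0288) as lower after quantile normalization.

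Without a model, 23 of 32 members were lower at 120 than at 0 minutes in both genotypes, where 53.3% of all genes were, and 7 were higher in both, where 27.8% were. Among members called at 120 minutes, 13 had another probe set above the filter level, and 19 of those 20 probe sets had the same sign, the exception being the dimmer Hmgcs1 set.

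At 60 minutes 5 of 32 members passed, a share of 15.6% near the 18.0% of all genes. Hmgcs1 and Msmo1 were higher than at 0 minutes (6.25% of members, against 7.34% of genes) and Mvd, Tm7sf2 and Dhcr7 were lower (9.38%, against 10.7%). The median of the members was -0.07, as was that of all genes. Hmgcs1 had risen by 0.33 ± 0.045 (limma, adjusted p = 0.000728) and Dhcr7 had fallen by 0.45 ± 0.072 (limma, adjusted p = 0.00199), and these alone passed on all 3 scalings (3.12% of members each, against 7.32% of genes higher and 4.52% lower). Mvd gave -0.34 ± 0.069 (limma, adjusted p = 0.00747), Tm7sf2 -0.24 ± 0.063 (limma, adjusted p = 0.0269) and Msmo1 0.19 ± 0.052 (limma, adjusted p = 0.0276). The other probe set of Msmo1 had the opposite sign at this time, with -0.14, as did the dim set of Hmgcs1, with -0.30. Shifting arrays to the same median raised the median of all genes by 0.106, from -0.07 to 0.03. Then 7 members were higher (21.9%, against 12.1% of genes), namely Hmgcs1, Idi1, Sqle, Msmo1, Sc5d, Insig1 and Srebf2. Dhcr7 alone was lower (3.12%, against 4.61%). Other probe sets of Sc5d disagreed in sign at 60 minutes, with -0.21 and 0.22 on the deposited scale. After quantile normalization 1 was higher (3.12%, against 9.33%) and 6 were lower (18.8%, against 10.4%). Without a model, 7 members were higher at 60 minutes in both genotypes, where 21.5% of genes were, and 16 were lower in both, where 51.5% were. No regulator and no fatty acid gene passed on the deposited scale in limma. At an unadjusted limma p of 0.05, 1 regulator and 5 fatty acid genes were lower. The share of all genes at that unadjusted threshold was not counted, so nothing is read from those counts.

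Between 60 and 120 minutes, 7 of 32 members were lower at 120 minutes (21.9%, against 14.9% of genes) and 0 were higher, also at an unadjusted p of 0.05 in limma (10.2% of genes were higher, and 25.1% passed in either direction). Stard4 fell by 0.35 ± 0.056 (limma, adjusted p = 0.00129), Dhcr7 by 0.33 ± 0.072 (limma, adjusted p = 0.0071) and Insig1 by 0.27 ± 0.057 (limma, adjusted p = 0.00601), and these 3 passed on every scaling (9.38%, against 11.8% of genes). Insig2, Mvd, Fads1 and Scd1 were lower by -0.24, -0.26, -0.19 and -0.16 on the deposited scale and did not pass after the median shift. Hmgcs1 did not pass here, with -0.06 ± 0.045 (limma, adjusted p = 0.365), and its 60 minute arrays were above its 120 minute arrays in both genotypes. Without a model, 3 members were higher at 120 than at 60 minutes in both genotypes, where 29.7% of genes were, and 18 were lower in both, where 39.2% were. The 3 time comparisons share arrays.

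**Figure D3:**
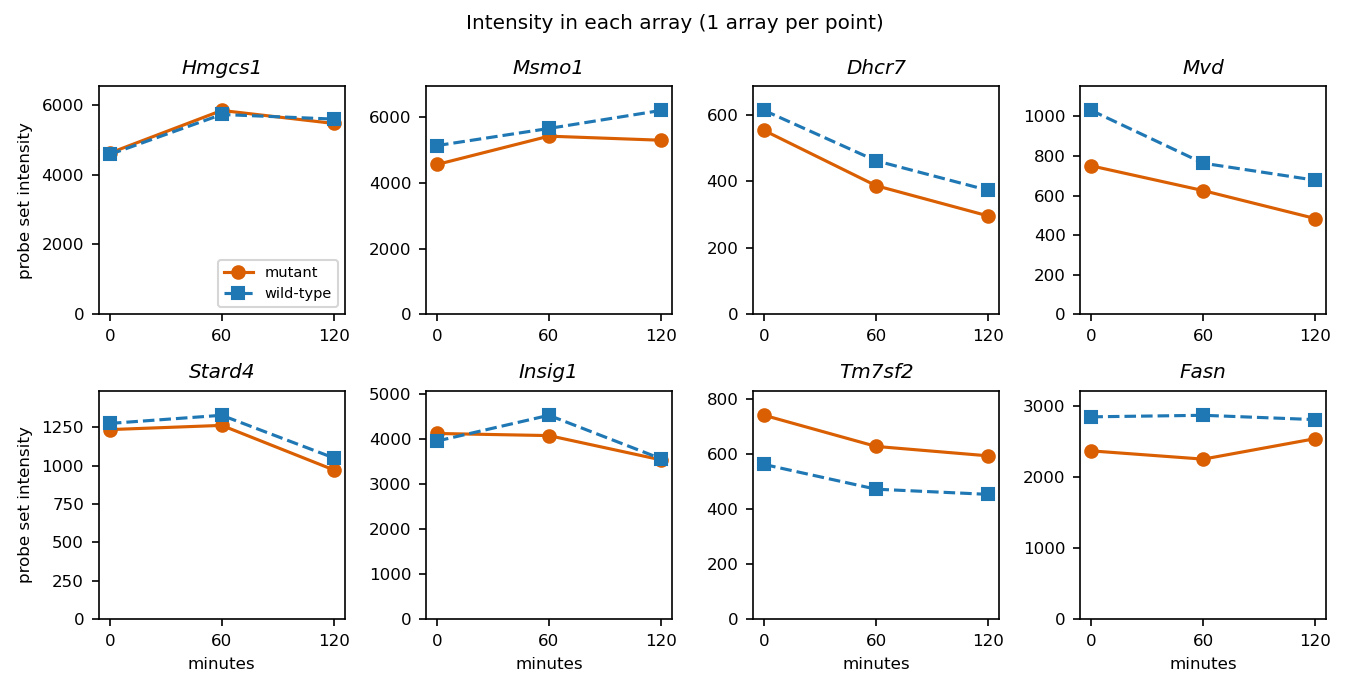
Probe set intensity (vertical axes start at 0) against minutes for 8 members, with mutant cells as orange circles and solid lines and wild-type cells as blue squares and dashed lines, 1 array per point. Dhcr7 and Mvd decline at each step in both genotypes, Stard4 and Insig1 are lowest at 120 minutes, and the genotypes are apart at every time for Tm7sf2 and Fasn.

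The comparison of genotypes asked how the list differed in cells with mutant LPAR1 at matched times. Cyp51 and Tm7sf2, which act in succession after lanosterol is formed, were higher in mutant cells, and Mvd, Idi1, Msmo1, Dhcr7, Fasn and Acss2 were lower. That made 2 of 32 higher (6.25%, against 10.4% of genes) and 6 lower (18.8%, against 8.95% of genes), and 8 in either direction (25.0%, against 19.4%). After the median shift 2 were higher (10.3% of genes) and 5 lower (8.57% of genes), and after quantile normalization 2 were higher (11.3%) and 7 lower (11.0%). The median was -0.04, and that of all genes 0.01. These calls rest on time as a block that pairs the arrays: without it 0 members passed and 0.834% of genes did, with the lowest limma adjusted p among these 8 at 0.167 (Fasn). The summed intensity of the endothelial markers was 94.98 to 110.6 in mutant cells and 51.2 to 65.6 in wild-type cells. Of that list only Cdh5 had a mean above the filter level, by 1.11 times, and Pecam1, Kdr and Tek were below it. Cdh5 had 64.6, 61.4 and 62.1 in mutant cells at 0, 60 and 120 minutes, against 22.4, 23.0 and 27.4 in wild-type cells. Its difference was 0.97 (limma, adjusted p = 0.000246), with every wild-type array below the filter level. Cdh5 was thus dim, and no shift of cell type is read from it. Epithelial Cdh1 (-0.49, adjusted p = 0.00286) and fibroblast Col1a1 (-0.49, adjusted p = 0.000192) and Pdgfrb (-0.23, adjusted p = 0.01) were lower in mutant cells, and fibroblast Col3a1 (0.18, adjusted p = 0.0068) was higher. The part of these in the genotype differences was not tested.

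Tm7sf2, with the intensities given above, was higher in mutant cells by 0.39 ± 0.051 (limma, adjusted p = 0.000901), and its lowest mutant array was above its highest wild-type array. By time it was 0.39, 0.40 and 0.38 at 0, 60 and 120 minutes. Cyp51, the demethylase of lanosterol, had 8887, 8509 and 8675 in mutant cells, against 8015, 8177 and 7744 in wild-type cells, a difference of 0.12 ± 0.037 (limma, adjusted p = 0.0435). The groups did not overlap, its 2 other probe sets gave 0.29 and 0.30, and the call was kept in 6 of 16 alternatives.

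Mvd was lower in mutant cells by -0.40 ± 0.056 (limma, adjusted p = 0.00128) and at each time, by -0.45, -0.28 and -0.47, with -0.50 in its other probe set. Because Mvd also declined with time, its groups overlapped when times were pooled. Fasn, the fatty acid synthase, had 2363, 2247 and 2535 in mutant cells, against 2842, 2863 and 2803 in wild-type cells. The groups did not overlap, and the difference was -0.25 ± 0.048 (limma, adjusted p = 0.00625). Acss2 was lower by -0.26 ± 0.054 (limma, adjusted p = 0.00914), with -0.19 in its other probe set and overlapping groups. Mvd, Tm7sf2 and Fasn were lost only without the block, and Acss2 also with the mean of all its probe sets.

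Dhcr7 gave -0.24 ± 0.059 (limma, adjusted p = 0.0208), Msmo1 -0.15 ± 0.042 (limma, adjusted p = 0.0313) and Idi1 -0.13 ± 0.040 (limma, adjusted p = 0.0418). These were less stable, kept in 10, 9 and 4 of 16 alternatives, and Idi1 was lost after the median shift. For each of the 3, mutant cells were lower at all 3 times. None of the 6 regulator and sterol carrier genes passed in limma, with differences of -0.08 (Stard4) to 0.10 (Srebf2) in their brightest probe sets. None of them was under an unadjusted limma p of 0.05. The dimmer probe set of Srebf2 gave the opposite sign, -0.30, and was lower in mutant cells at all 3 times. Other probe sets of Stard4 gave -0.19 and 0.04. Without a model, 12 of 32 members were lower in mutant cells at all 3 times, where 22.9% of genes were, and 3 were higher at all 3, where 28.4% were.

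**Figure D4:**
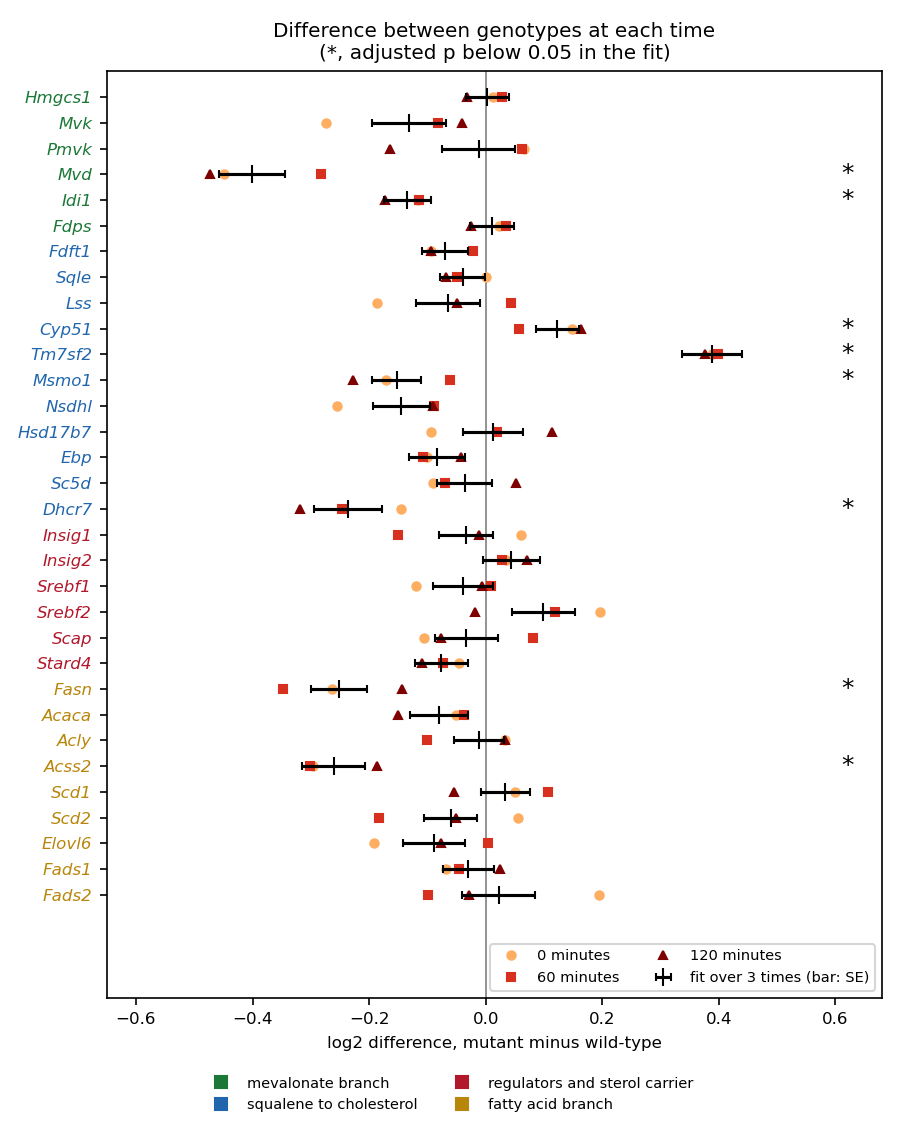
Log2 difference between mutant and wild-type cells for each of the 32 members at 0, 60 and 120 minutes (coloured points, 1 pair of arrays each) with the limma estimate over the 3 times and its SE (black), and an asterisk where adjusted p was under 0.05. Tm7sf2 stands to the right at 0.39 with its points close together, and Mvd to the left at -0.40.

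Whether the genotypes differed in their change over time could not be tested, since 1 array per genotype and time leaves no residual spread for it. As values, the mutant change minus the wild-type change at 60 minutes ran from -0.29 (Fads2) to 0.23 (Lss) with a median of 0.01 over the members, and at 120 minutes from -0.23 (Pmvk) to 0.23 (Mvk) with a median of -0.01. For Dhcr7 the change at 120 minutes was -0.87 in mutant cells and -0.69 in wild-type cells, and for Hmgcs1 0.24 in mutant cells and 0.29 in wild-type cells.

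Other genes around the pathway were taken from 7 lists, whose counts at 120 minutes stand beside 16.2% of all genes higher and 30.8% lower. In the machinery that processes SREBPs, 15 genes were tested, and at 120 minutes 3 were higher and 2 lower. Mbtps1, the Golgi protease that makes the opening cut in SREBPs, had 1018, 965 and 852 in mutant cells, against 1421, 1258 and 1295 in wild-type cells, a genotype difference of -0.48 ± 0.054 (limma, adjusted p = 0.000311). Its groups did not overlap, and it was the only gene of that list to pass between genotypes. Fbxw7, a ubiquitin ligase subunit that marks nuclear SREBPs for breakdown, was higher at 120 minutes by 0.35 ± 0.07 (limma, adjusted p = 0.00273).

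Among genes of the liver X receptor (LXR), which senses oxysterols and drives cholesterol export, 5 of 11 listed genes were bright enough to test, and at 120 minutes 1 was higher and 2 lower. Mylip, a ligase that degrades lipoprotein receptors, had 1141, 1129 and 513 in mutant cells, against 1039, 1022 and 376 in wild-type cells. It was lower at 120 minutes by -1.28 ± 0.08 (limma, adjusted p = 1.53e-06), and both 120 minute arrays were far below the other 4. Abca1, the cholesterol exporter, had 104, 87.0 and 51.4 in mutant cells, against 76.0, 71.6 and 36.7 in wild-type cells, with -0.82 ± 0.11 (limma, adjusted p = 0.0002). Abca1 was close to the filter level at 120 minutes. Nr1h3, an LXR itself and also dim, had 41.5, 37.6 and 56.9 in mutant cells, against 38.2, 55.3 and 59.1 in wild-type cells, with 0.41 ± 0.14 (limma, adjusted p = 0.0404). Among 17 genes of cholesterol uptake and trafficking, 8 were lower and 2 higher at 120 minutes, the lower ones including the sterol transporters Gramd1a (-0.62), Stard5 (-0.56) and Stard3 (-0.54).

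Lpin1, the phosphatidate phosphatase that also restrains SREBP in the nucleus, had 624, 447 and 160.3 in mutant cells, against 563, 411 and 137 in wild-type cells. It ran downward in both genotypes, to -1.89 ± 0.071 at 120 minutes (limma, adjusted p = 5.08e-08), within a list of 24 fatty acid activation and glycerolipid genes in which 6 were higher and 6 lower. In fatty acid oxidation 11 of 18 genes were lower and 2 higher at 120 minutes, with Ppargc1a, a coactivator of oxidative genes, at -1.69, Pdk4, which restrains pyruvate oxidation, at -0.95 and Cpt1a, the gate of mitochondrial fatty acid entry, at -0.72. Among inputs to the kinases AMPK and mTORC1, 8 of 17 were lower and 3 higher, with the mTORC1 inhibitors Ddit4 at -2.75 and Sesn1 at -2.40. In the isoprenoid and prenylation list 4 of 13 were lower and 1 higher, near the share of all genes. Each named gene here passed also after the median shift and after quantile normalization, and the list medians at 120 minutes ran from -0.31 for the LXR genes to -0.07 for the SREBP machinery, beside -0.16 for the synthesis genes and -0.09 for all genes tested.

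**Figure D5:**
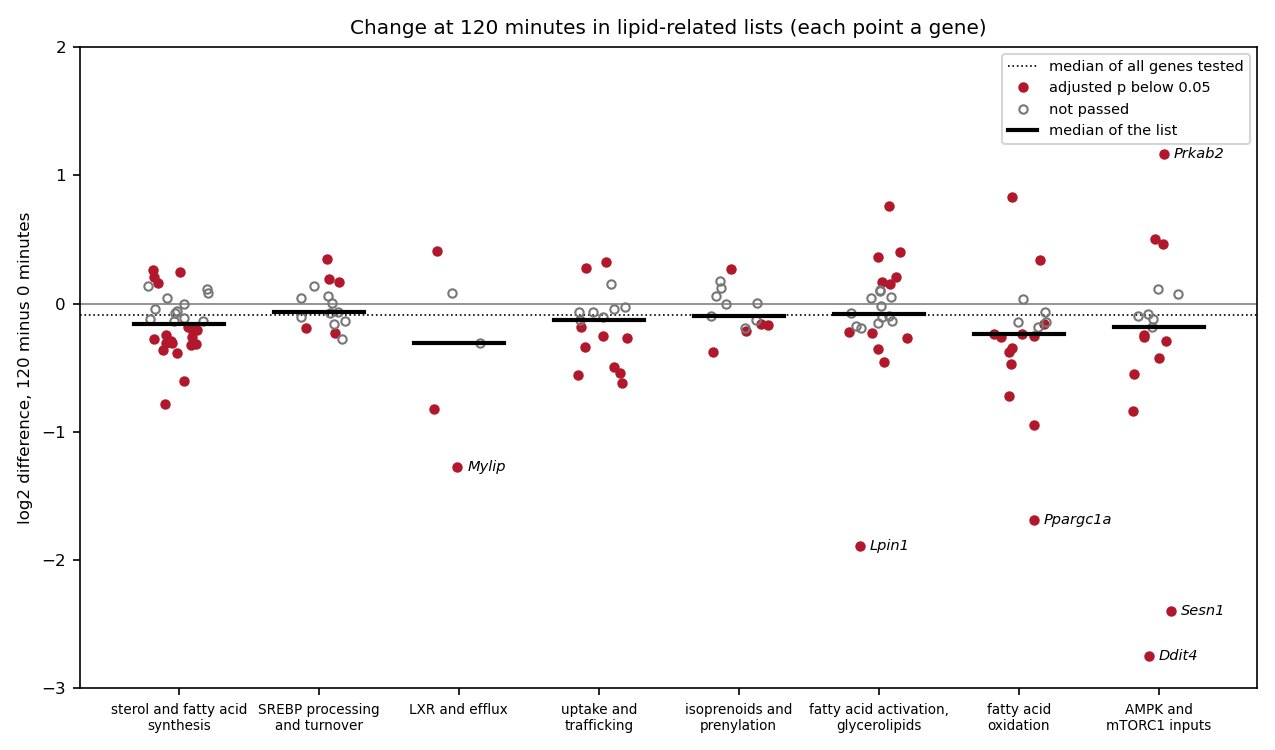
Log2 difference between 120 and 0 minutes for each tested gene of the synthesis list and of 7 related lists, filled where adjusted p was under 0.05, with a bar at the median of the list and a dotted line at the median of all genes tested. The synthesis genes lie between -0.78 and 0.26, and Ddit4, Sesn1, Lpin1 and Ppargc1a lie lowest among the related genes.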

How the data were processed

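Total RNA of the 6 samples was hybridised to Affymetrix arrays. Per the submitters' processing notes, the authors made the deposited intensity of each probe set with PLIER in Affymetrix Power Tools 1.14.3.1. The background correction and the scaling between arrays are not given in the sources used here. The values were linear, and log2(intensity + 16) entered every fit with no added scaling.

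The array held 45101 probe sets, 64 of them controls. A single gene name went with 34945, several with 932 and none with 9160, and a gene was read from its set with the highest mean. Different probe sets have different responses, so intensities were not compared between genes. Genes under the 40th percentile of mean intensity (39.2) were left out. limma 3.58.1 in R 4.3.3 fitted genotype and time as additive terms with a shrinkage trend, 2 residual degrees of freedom and 7.73 added by shrinkage. The residual mixes array noise with any unequal response of the genotypes over time. P-values were two-sided and adjusted by Benjamini-Hochberg within a contrast, with 0.05 as the threshold. The number of arrays limits precision.

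Time pairs the arrays of the genotypes, as the labels give 1 array of each at each time. Deviations from genotype means correlated across genes at 0.912, 0.757 and 0.871 for arrays of the same time. With 1 array of each, the shared time response cannot be told apart from any other pairing in these values. Between times the correlations were negative, which centring on the genotype mean favours. The genotype comparison was tested on simulated data that held no time effect. The time comparisons were not tested in that way. Alternatives were other offsets, filters, scalings, probe set rules, no trend, no block and leaving out each array. The rule for naming took every member that passed and every regulator with all values, and up to 4 genes of a related list. The members and lists were chosen with earlier results of these data known.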

Additional observations from a re-analysis of the deposited data

Results flagged for a closer look

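Hsd17b7, a reductase of sterol demethylation, moved in opposite directions in the genotypes by its brightest probe set. It had 1418, 1446 and 1519 in mutant cells at 0, 60 and 120 minutes, against 1514, 1426 and 1403 in wild-type cells. Relative to 0 minutes it changed by 0.03 and 0.10 (log2) at 60 and 120 minutes in mutant cells, and by -0.09 and -0.11 in wild-type cells. The mutant change minus the wild-type change was 0.11 at 60 minutes and 0.21 at 120 minutes. Each value rests on 1 array per genotype and time, and the difference was not tested. Its 2 other probe sets above the filter level did not share this pattern. The brighter of them had 955, 1067 and 913 in mutant cells, against 1015, 982 and 993 in wild-type cells, lower at 120 than at 0 minutes in both. The dimmer had 493, 493 and 553 in mutant cells, against 538, 593 and 546 in wild-type cells, higher at 120 than at 0 minutes in both.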

How the results depend on the processing

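No member that passed reversed its direction under any of 16 alternatives for genotype or 15 for each time comparison. For genotype, where 2 members were higher and 6 lower, without time as a block 0 were higher and 0 lower, and 91 genes passed in place of 2115. Without the shrinkage trend 1 was higher and 3 lower (1402 genes), and 1 was higher with no filter on dim genes or with all probe sets fitted. For 60 minus 0 minutes (2 higher, 3 lower), shifting arrays to the same median gave 7 higher and 1 lower and turned the median of the members to 0.032, and quantile normalization gave 1 higher and 6 lower. There averaging the probe sets of each gene gave 1 higher and 7 lower, the 60th percentile filter 5 lower, and no filter or no trend 1 higher. For 120 minus 0 minutes (4 higher, 16 lower) the median shift gave 8 higher and 4 lower. For 120 minus 60 minutes (0 higher, 7 lower) the median shift gave 3 lower, averaging probe sets 2 higher and 4 lower, and no trend 4 lower. Leaving out each array gave 1 higher and 3 to 4 lower members for genotype (3 without either 120 minute array), with 1363 to 2164 genes (1363 without either 60 and 1389 without either 0 minute array), and 1 to 2 higher and 2 to 7 lower for 60 minus 0 (1 higher without either 0 or the mutant 60 minute array, 7 lower without either 120 minute array), with 1145 to 2511 genes. It gave 3 to 5 higher and 11 to 16 lower for 120 minus 0, with 3674 to 5311 genes, and 0 higher and 3 to 7 lower for 120 minus 60 (3 without either 60 and 4 without the mutant 120 minute array), with 1932 to 2714 genes. Causes were not tested. Time served as the block, and either array left out of a time removes that time from the genotype comparison. With 1 array per genotype and time, small differences could not be resolved, and the scaling that would fit these arrays is unknown.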

Other observations

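In genes around the pathway, genotype differences were spread over both directions, beside 10.4% of all genes higher in mutant cells and 8.95% lower. Counts such as 2 of 17 or 1 of 13 are near those shares. In fatty acid oxidation 5 of 18 genes were higher in mutant cells and 2 lower. Pdk4 had 349, 170.1 and 179 in mutant cells at 0, 60 and 120 minutes, against 130.4, 59.4 and 57.5 in wild-type cells, a log2 difference of 1.34 ± 0.073 (SE, limma, adjusted p = 3e-06), and every mutant array was above every wild-type array. In uptake and trafficking 2 of 17 were higher and 3 lower. Lrpap1, a chaperone of lipoprotein receptors, had 722, 649 and 644 in mutant cells, against 1057, 965 and 985 in wild-type cells, with -0.57 ± 0.049 (limma, adjusted p = 6.44e-05). Vldlr, a lipoprotein receptor, had 248, 249 and 202 in mutant cells, against 352, 332 and 292 in wild-type cells, with -0.46 ± 0.061 (limma, adjusted p = 0.00097). For both genes the groups did not overlap. Agpat3, an acyltransferase of phospholipid synthesis, was higher in mutant cells by 0.50 ± 0.053 (limma, adjusted p = 0.000223), in a list with 4 of 24 higher and 2 lower. These 4 genes also passed after the median shift and after quantile normalization. Of 5 LXR genes 2 were higher in mutant cells and 0 lower, of 13 isoprenoid genes 1 was higher and 1 lower, and of 17 AMPK and mTORC1 inputs 1 was higher and 1 lower.

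Some related genes stood apart at 60 minutes. Prkab2, a subunit of AMPK, had 139, 535 and 309 in mutant cells, against 108, 427 and 281 in wild-type cells, with 1.84 ± 0.082 between 60 and 0 minutes (limma, adjusted p = 2.14e-07). Angptl4, an inhibitor of lipoprotein lipase, had 151, 74.1 and 255 in mutant cells, against 180.1, 95.2 and 363 in wild-type cells, so that both genotypes were lowest at 60 and highest at 120 minutes. Sesn2, an mTORC1 inhibitor, had 234, 419.9 and 115 in mutant cells, against 262, 414 and 150.3 in wild-type cells, highest at 60 and lowest at 120 minutes in both.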
